A study of Mus musculus with 18 samples.

Results

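Interferon-stimulated genes are described here as a list of 42 genes, found through the annotation of the deposited array values. Of the 42 members, 36 have a probe set that names them alone, out of 19937 genes that do. Levels of 34 members passed the filter on dim genes, as did 15711 genes in all, and Mx1 and Iigp1 lay under it. Isg15, Igtp, Ifi47, Tgtp1 and Gbp2 sit only on probe sets that also name another gene, and Ifi44 is not named, so these 6 members have no value here.

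The study set cultured mouse embryonic fibroblasts (MEFs) of strain 129sv/ev in 6 groups of 3 arrays. Cells of the NFAT5 knock-out line 5.1 (KO) were kept in hypertonic or in isotonic medium. Cells of the NFAT5 wild-type line 5.4 (WT) were kept in hypertonic or isotonic medium after pretreatment with Torin1, an inhibitor of the kinase mTOR, at 100 nM for 1 h, and in hypertonic or isotonic medium without Torin1. The titles give 500 for hypertonic and 300 for isotonic medium with no unit, and no Torin1 group of the KO line is described. No group was treated with interferon according to the labels. Each genotype is represented by a single named line, so genotype and line cannot be told apart. Isotonic KO array 1 is KO by its title and wild-type by its genotype label. It was kept as KO, and its Irgm1 level of 9.92 lay close to 10.03 and 10.65 in the other isotonic KO arrays and below the 11.86 to 12.93 of the WT arrays. The line difference of Irgm1 is itself described below with this array as KO, so this level is no independent check of the label. Every group holds arrays numbered 1, 2 and 4 in the titles. The labels do not say what these numbers stand for, nor whether arrays of a group came from separate cultures, so the p-values reflect array-to-array spread alone, which may be technical. If the arrays of a number share an experiment, they are not independent replicates of it.

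NFAT5 is a transcription factor that drives genes for osmolyte uptake and synthesis in hypertonic medium. Interferon-stimulated genes form the antiviral program that type I interferons switch on through the receptor chains IFNAR1 and IFNAR2, the kinases JAK1 and TYK2 and a factor complex that contains STAT2 and IRF9. Fibroblasts secrete interferon beta when their RNA or DNA sensors detect nucleic acid, and several of those sensors are themselves products of the program. Levels below are log2 RMA signals, differences are log2 differences ± standard error, and "passed" means an adjusted p below 0.05 in limma over all tested genes.

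The complex that contains STAT2 and IRF9 binds a response element whose core holds a pair of GAAA-like repeats, and STAT dimers bind a palindromic site that joins TTC to GAA. RefSeq promoter windows (assembly GRCm38.p6, 250 bases before to 50 after a gene's start) were found for 33 of the 42 members. The motif GAAANNGAA, searched on both strands, occurred in 18 of these 33 members (54.5%), against 9.76% of the 27025 genes with such a window. The motif TTCNNNGAA, which reads the same on both strands, occurred in 10 members (30.3%), against 9.55% of all genes. The windows shown belong to the 3 members with the largest difference between WT arrays of number 4 and of numbers 1 and 2, Ifit1, Trim30a and Oasl2, and to the 2 with the smallest, Oas3 and Irf1, among the tested members that have a window. Capitals mark the matches. They lie at chr19:34640639-34640938, plus strand for Ifit1, chr7:104465144-104465443, minus strand for Trim30a, chr5:114896684-114896983, plus strand for Oasl2, chr5:120777610-120777909, minus strand for Oas3 and chr11:53769764-53770063, plus strand for Irf1, and are written 5′ to 3′ along the gene.
Ifit1: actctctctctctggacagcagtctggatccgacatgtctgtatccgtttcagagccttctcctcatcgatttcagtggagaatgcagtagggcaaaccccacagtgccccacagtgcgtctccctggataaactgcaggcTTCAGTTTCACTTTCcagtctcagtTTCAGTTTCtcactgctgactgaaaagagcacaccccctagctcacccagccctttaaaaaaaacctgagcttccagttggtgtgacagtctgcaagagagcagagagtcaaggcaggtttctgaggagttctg
Trim30a: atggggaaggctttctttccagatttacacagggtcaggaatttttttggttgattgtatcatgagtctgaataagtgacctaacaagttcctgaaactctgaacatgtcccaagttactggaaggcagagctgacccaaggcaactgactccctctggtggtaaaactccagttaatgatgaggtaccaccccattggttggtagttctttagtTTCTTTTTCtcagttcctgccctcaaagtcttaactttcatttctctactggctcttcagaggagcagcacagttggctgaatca
Oasl2: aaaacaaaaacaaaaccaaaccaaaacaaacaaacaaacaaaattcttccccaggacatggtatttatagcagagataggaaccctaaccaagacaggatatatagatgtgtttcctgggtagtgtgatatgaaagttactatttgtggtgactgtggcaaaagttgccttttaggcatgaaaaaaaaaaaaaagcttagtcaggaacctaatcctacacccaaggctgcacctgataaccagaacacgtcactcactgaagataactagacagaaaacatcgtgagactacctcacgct
Oas3: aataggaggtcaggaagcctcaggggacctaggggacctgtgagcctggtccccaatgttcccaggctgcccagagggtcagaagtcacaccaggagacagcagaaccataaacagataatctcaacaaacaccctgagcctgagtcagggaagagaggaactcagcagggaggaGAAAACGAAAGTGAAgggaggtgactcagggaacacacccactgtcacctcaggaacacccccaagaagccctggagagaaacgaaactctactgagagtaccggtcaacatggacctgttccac
Irf1: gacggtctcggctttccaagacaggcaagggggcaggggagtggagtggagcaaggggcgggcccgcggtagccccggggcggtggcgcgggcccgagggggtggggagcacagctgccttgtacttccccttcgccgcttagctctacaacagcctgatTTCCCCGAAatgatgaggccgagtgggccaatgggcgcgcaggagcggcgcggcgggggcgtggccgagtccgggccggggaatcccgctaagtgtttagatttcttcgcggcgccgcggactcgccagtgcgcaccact
The Ifit1 window holds 3 matches to GAAANNGAA, all read on the opposite strand, of which the first pair overlap. Trim30a has 1 match on the opposite strand, Oas3 has 2 overlapping matches on its own strand, and Oasl2 has 0 in these letters. Irf1 has 0 matches to GAAANNGAA and 1 to TTCNNNGAA. Members with and without the motif overlapped in their number 4 difference. The 13 tested members with it had number 4 differences in WT of 0.31 to 5.19 (median 2.04), and the 14 without it 0.09 to 4.68 (median 1.15).

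In the WT line, arrays of number 4 stood far above arrays of numbers 1 and 2 for nearly all of these genes, in both media and with or without Torin1. The mean level over the 34 tested members was 9.76 in hypertonic, 10.29 in isotonic, 9.62 in hypertonic Torin1 and 10.65 in isotonic Torin1 WT arrays of number 4. In WT arrays of numbers 1 and 2 it lay between 7.61 and 7.97. Mx2 passed the filter through arrays of number 4 alone, so its levels are given as values and it is left out of the counts within each line. With a number effect of its own in each line, number 4 minus the mean of numbers 1 and 2 was higher in WT for 31 of the other 33 members, against 12% of all tested genes higher, with a median difference of 1.86 over these members and -0.02 over all genes. Irf1 and Oas3 did not pass. Of the 33 members, 28 had all 4 WT arrays of number 4 above all 8 other WT arrays, a separation found for 5.07% of all genes. The exceptions were Irf1, Isg20, Oas3, Oasl1 and Psmb9.

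**Figure D1:**
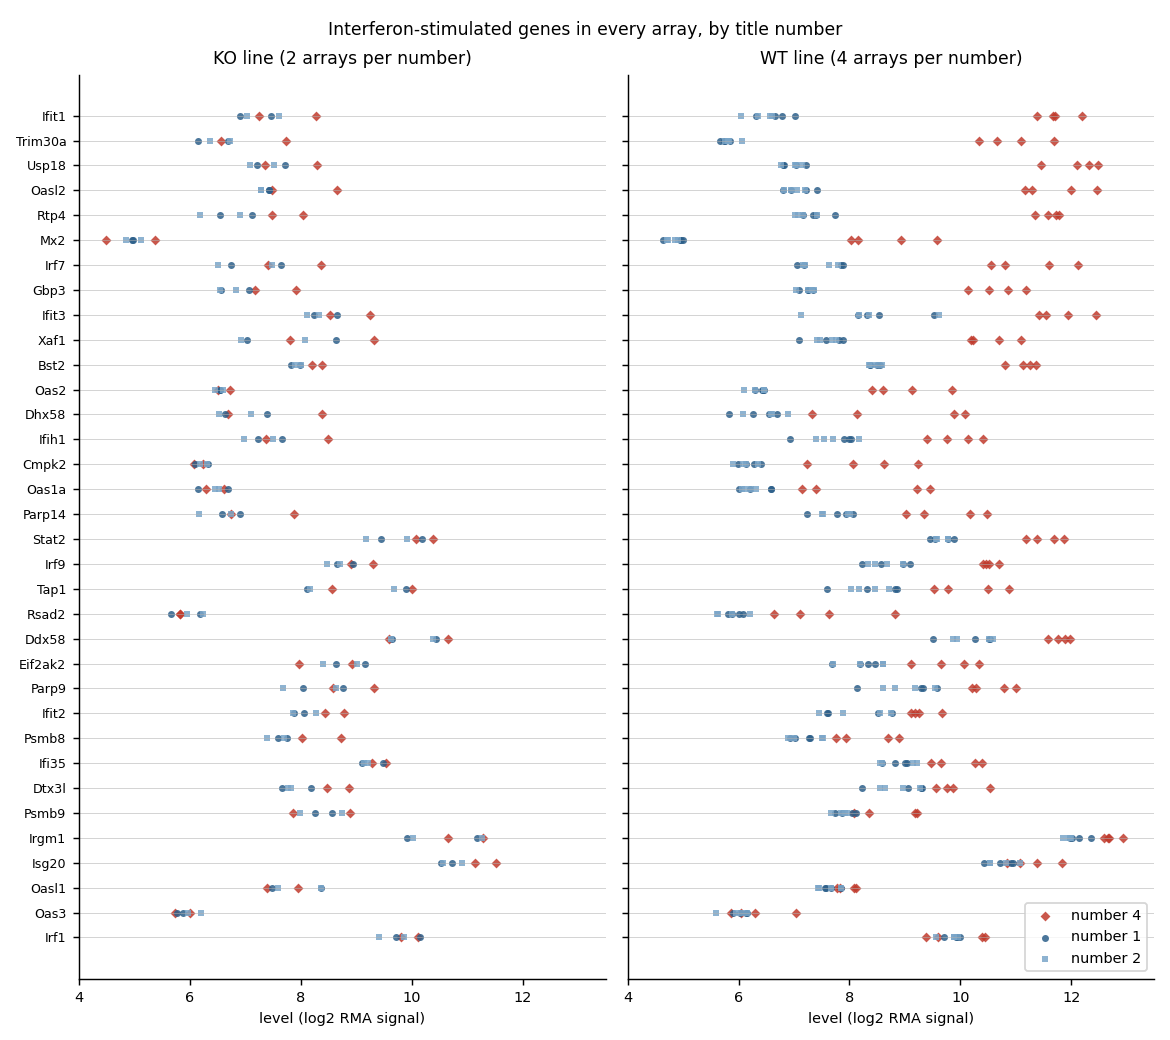
Level (log2 RMA signal) of the 34 tested members in every array, KO line at the left and WT line at the right, with diamonds for number 4, circles for number 1 and squares for number 2. Rows are ordered by the difference in WT, from Ifit1 (5.19) at the top to Irf1 (0.09) at the bottom, and the WT diamonds stand apart for most genes while the KO ones do not.

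The IFIT genes encode proteins that bind viral RNA. Ifit1, which recognises RNA caps that lack host methylation, had 11.71, 11.68, 11.38 and 12.19 in WT arrays of number 4 (hypertonic, isotonic, hypertonic Torin1 and isotonic Torin1), against a lowest of 6.05, a median of 6.59 and a highest of 7.02 in WT arrays of numbers 1 and 2. The arrays did not overlap. The difference was 5.19 ± 0.20, or 36.6-fold on the RMA scale (limma, adjusted p = 2.1e-10). Ifit3, a partner that stabilises IFIT1 in human cells, differed by 3.37 ± 0.29, with WT levels of 11.42 to 12.45 in number 4 and 7.12 to 9.62 in numbers 1 and 2. Ifit2 differed less, by 1.16 ± 0.18.

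Among the genes of interferon signalling and its feedback, 4 of 5 passed in WT. Usp18, the protease and receptor-binding protein that damps interferon signalling, had 12.11, 12.32, 11.46 and 12.47 in WT arrays of number 4 in the same order, against 6.76 to 7.21 (median 7.03) in numbers 1 and 2. Its difference was 5.11 ± 0.14, or 34.6-fold (limma, adjusted p = 6.96e-12). Irf7, the factor that amplifies interferon alpha transcription, had 10.80, 11.61, 10.55 and 12.12 against 7.05 to 7.88 (median 7.41), a difference of 3.80 ± 0.11. Stat2 and Irf9, subunits of the factor complex itself, each differed by 1.86, with standard errors of 0.08 and 0.09. Irf1, a transcription factor of the interferon regulatory family, was the exception at 0.09 ± 0.14 (limma, adjusted p = 0.674). Its WT levels were 9.39, 10.39, 9.59 and 10.44 in number 4 and 9.56 to 9.99 in numbers 1 and 2, so only its isotonic arrays of number 4 stood above the other WT arrays.

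All 4 sensor genes passed. Ifih1 (MDA5), a sensor of long double-stranded RNA, differed by 2.22 ± 0.15. Ddx58 (RIG-I), a sensor of RNA with a triphosphate end, differed by 1.59 ± 0.12, and its WT levels of 11.59 to 11.97 in number 4 stood above 9.50 to 10.59 in numbers 1 and 2. Dhx58 (LGP2), their regulator, differed by 2.42 ± 0.35, and Eif2ak2 (PKR), the kinase that stops translation on double-stranded RNA, by 1.57 ± 0.13. Of the oligoadenylate synthetase family, 4 of 5 passed and the differences spread widely. Oasl2 differed by 4.68 ± 0.16, Oas2 by 2.63 ± 0.18, Oas1a by 2.04 ± 0.30 and Oasl1 by 0.33 ± 0.09. Oas3 was at 0.31 ± 0.16 (limma, adjusted p = 0.157). Its levels lay around the filter level of 5.86, at 5.59 to 6.16 in WT arrays of numbers 1 and 2. In WT arrays of number 4 they were 5.86, 6.29, 6.04 and 7.04 in the order used above. The call for Oasl1 ended without number 4 of the isotonic Torin1 WT group (limma, adjusted p = 0.0881).

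Among the other antiviral effectors, all 8 members beside Mx2 passed in WT. Trim30a, a ubiquitin ligase of the TRIM family, had 10.66, 11.09, 10.34 and 11.70 in WT arrays of number 4 in the order used above, against 5.67 to 6.06 (median 5.78) in numbers 1 and 2. The difference was 5.14 ± 0.17. Since its level in numbers 1 and 2 lay around the filter level of 5.86, no fold is given. Rtp4, which restrains flaviviruses in mammals, differed by 4.32 ± 0.16. Mx2, a dynamin-like antiviral GTPase, had 8.04 to 9.58 in WT arrays of number 4, against 4.64 to 5.01 in numbers 1 and 2, under the filter level. Its relative Mx1 was under the filter, at 5.73, 5.87, 4.97 and 7.56 in WT arrays of number 4, against 4.46 to 4.71 in WT arrays of numbers 1 and 2. Both thus stood higher in each WT array of number 4 than in any other WT array. Bst2 (tetherin), which holds budding virions at the cell surface, differed by 2.69 ± 0.07, Xaf1 by 2.96 ± 0.10, Cmpk2 by 2.13 ± 0.21 and Rsad2 (viperin) by 1.66 ± 0.26. Ifi35 at 1.08 ± 0.10 and the exonuclease gene Isg20 at 0.54 ± 0.11 were the smallest.

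The remaining roles followed the same direction in WT. Parp14, Parp9 and Dtx3l, ADP-ribosylation and ubiquitin-ligase genes whose products act together, differed by 2.01 ± 0.15, 1.51 ± 0.12 and 1.02 ± 0.12. Tap1, the peptide transporter subunit for antigen presentation, differed by 1.79 ± 0.11. The immunoproteasome genes Psmb8 and Psmb9 differed by 1.14 ± 0.11 and 0.81 ± 0.14. Gbp3, a guanylate-binding protein, differed by 3.43 ± 0.12, against 0.68 ± 0.10 for Irgm1, a GTPase of vacuole defence with 12.59 to 12.93 in number 4 and 11.86 to 12.36 in numbers 1 and 2. The call for Irgm1 ended when isotonic KO array 1 was counted as WT. Iigp1, of the same GTPase family and under the filter, had 7.63, 7.28, 6.55 and 8.38 in WT arrays of number 4, against 4.52 to 4.82 in the other WT arrays.

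Number 4 stood apart from both other numbers. With 1 number effect for both lines, number 4 was higher than number 1 for 29 of 34 members (6.6% of all genes were higher). It was higher than number 2 for 30 (8.16%). Both counts include Mx2, which passed the filter through number 4 alone, so its call carries no weight. Number 2 minus number 1 passed for 0 members and 0% of all genes in limma, with 0 members at an unadjusted p under 0.05, and the members' median was -0.06. The members moved together across arrays. After group means were removed, the 561 pairs of tested members had a median Pearson correlation of 0.905 over the 18 arrays, 428 pairs were above 0.8 and 0 were below 0. These correlations share the same arrays and are given as a description. Gbp3 followed the members' mean most closely (r = 0.996), and Irf1 (0.337) and Oas3 (0.532) least.

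The KO line showed far less of it. The members' mean was 7.87 in hypertonic and 8.47 in isotonic KO arrays of number 4, against 7.63 to 7.93 in KO arrays of numbers 1 and 2. Number 4 minus numbers 1 and 2 passed as higher for 11 of 33 members (4.34% of all genes), with a median of 0.50. The largest were Rtp4 at 1.08 ± 0.23, Xaf1 at 0.90 ± 0.14 and Dtx3l at 0.82 ± 0.17, and the others were Irf7, Gbp3, Psmb8, Parp14, Parp9, Isg20, Stat2 and Bst2. In 8 of 34 members both KO arrays of number 4 lay above all 4 others, against 6.59% of all genes: Bst2, Dtx3l, Gbp3, Ifit2, Isg20, Oasl2, Psmb8 and Rtp4. Ifit1, at 7.24 in hypertonic and 8.27 in isotonic KO arrays of number 4 and 6.90 to 7.61 in the other KO arrays, did not pass. These KO calls rest on few arrays: Stat2 and Xaf1 were the 2 still called without number 4 of isotonic KO, 8 members were called without each of the KO arrays of numbers 1 and 2, and 0 when isotonic KO array 1 was counted as WT (limma, with 11 at an unadjusted p under 0.05). The Rtp4 difference was 0.47 without number 4 of isotonic KO and 1.68 without number 4 of hypertonic KO.

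The difference between the lines was tested as a contrast over arrays. If number 4 stands for a single experiment, its arrays in a line are not independent replicates of it. The p-values then reflect array-to-array spread alone. The number 4 difference was smaller in KO than in WT for 25 of 33 members and larger for 0, against 6.62% of all genes smaller, with a median of -1.62. For Ifit1 it was 0.50 ± 0.29 in KO and 5.19 ± 0.20 in WT, and the lines differed by -4.69 ± 0.35 (limma, adjusted p = 7.25e-07). For Usp18 it was 0.44 ± 0.20 in KO and 5.11 ± 0.14 in WT, which differed by -4.67 ± 0.24. For Trim30a it was 0.67 ± 0.24 in KO and 5.14 ± 0.17 in WT. By role, the lines differed for 3 of 4 sensors, 4 of 5 signalling genes, 2 of 3 IFIT genes, 4 of 5 oligoadenylate synthetase genes and 7 of 8 other effectors. Dhx58, Ifit2, Oas3, Psmb8, Irgm1, Dtx3l, Irf1 and Isg20 did not pass. For Isg20 the differences were 0.64 ± 0.16 in KO and 0.54 ± 0.11 in WT. With Mx2 counted, 26 members passed, leaving out single arrays gave 20 to 27, the lowest without number 4 of hypertonic KO, and counting isotonic KO array 1 as WT left 18.

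**Figure D2:**
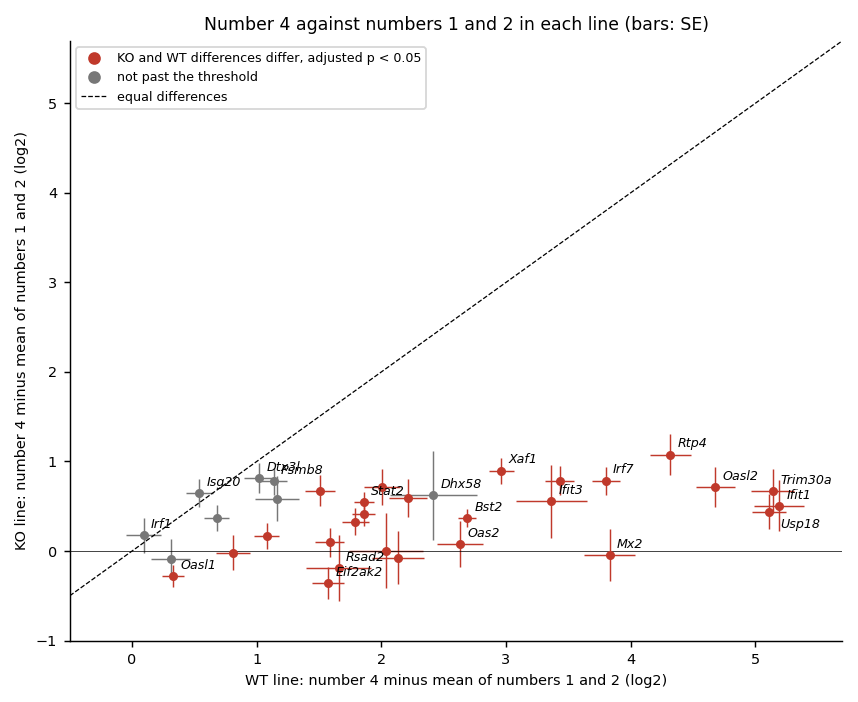
Difference between number 4 and the mean of numbers 1 and 2 for the 34 members, KO line on the vertical and WT line on the horizontal axis (log2, bars show SE). The dashed line marks equal differences, and red marks the 26 members with an adjusted p below 0.05 for the line difference. Mx2 is among these 26 but passed the filter through number 4 alone, so its colour carries no weight. Ifit1, Usp18 and Trim30a lie above 5 in WT and under 1 in KO.

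Within the WT line the rise in number 4 also depended on the medium for some members. The median difference over the 34 members, Mx2 included, was 1.64 in hypertonic and 2.28 in isotonic WT arrays. The hypertonic value was smaller for 4 of 33 members, against 0.783% of all genes smaller: Dhx58 (-2.31 ± 0.31), Oas1a (-2.02 ± 0.26), Ifit2 (-1.19 ± 0.16) and Oas2 (-1.08 ± 0.22). Oas1a, for example, had 7.39 with Torin1 and 7.15 without in the hypertonic WT arrays of number 4, against 9.45 and 9.22 in the isotonic ones. Ifit2 had 9.25 and 9.19 in the hypertonic WT arrays of number 4, against 9.66 and 9.11 in the isotonic ones. In WT arrays of numbers 1 and 2 it had 8.52 to 8.77 in hypertonic and 7.45 to 7.88 in isotonic medium. Its media thus differed mainly in numbers 1 and 2. All 4 calls ended without number 4 of the isotonic Torin1 WT group, and when isotonic KO array 1 was counted as WT. Oas2 was also lost without several other arrays.

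Listed interferon genes were read alongside. Of all tested genes, 4.34% were higher in number 4 of KO and 12% in number 4 of WT. Of 9 tested interferon ligand genes only Ifna9 was higher in WT arrays of number 4, by 0.65 ± 0.08, with levels of 6.86, 7.09, 7.14 and 7.25. Ifnb1, the interferon beta gene of fibroblasts, was between 5.03 and 5.61 in all 18 arrays, below the filter level of 5.86. Of 15 tested genes for receptors and JAK-STAT signalling, 5 were higher in number 4 of KO, led by the feedback inhibitor Socs3 (1.38) and the kinase gene Jak2 (1.30), and 8 in number 4 of WT, led by Socs3 (1.65) and the receptor chain Ifnar2 (0.76). Among genes that induce interferon, 1 of 16 was higher in number 4 of KO, Sting1 (0.96), and 9 in number 4 of WT, among them the nucleic acid sensors Zbp1 (2.86) and Tlr3 (1.29). Of 41 other interferon-inducible genes, 12 were higher in number 4 of KO and 37 in number 4 of WT. The largest differences in WT were those of Sp100 (4.25), Ifi203 (3.67) and Phf11d (3.48). Sp100 lay at 5.32 to 5.72 in WT arrays of numbers 1 and 2, under the filter level. In KO it had 8.22 and 9.82 in number 4, against 6.95 to 7.85 in the other KO arrays. Ddx60 and Slfn5, counted among the 41, exceeded the filter level only through arrays of number 4. Any call for them therefore carries no weight. The 10 genes outside the list whose pattern over the 18 arrays was most like the members' mean were Oas1b, Ifi203, Rnf213, Parp10, Phf11d, Ube2l6, Lgi2, Cp, Pkdcc and Tnfrsf9, with correlations of 0.990 to 0.995 after removal of group means. Oas1b, for instance, was at 9.31 to 10.66 in WT arrays of number 4 and 5.60 to 6.28 in the other WT arrays.

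Markers of other cells were compared with the same number contrast. Of all 15711 tested genes, 682 were higher and 1031 lower in number 4 of KO. In number 4 of WT, 1883 were higher and 2649 lower. Of 9 tested macrophage markers, Cd14 was higher in number 4 of KO, by 1.78 ± 0.14, with 8.98 and 8.74 there and 6.98 to 7.15 in the other KO arrays. In WT arrays of number 4, Cd14 was higher by 0.67 ± 0.10 and 2 (Csf1r and Cd68) were lower, and the list's mean was 6.39 to 6.50 there and 6.18 to 6.58 in WT arrays of numbers 1 and 2. Ptprc, the pan-leukocyte marker, was between 5.36 and 5.90 in all arrays, and Adgre1, a macrophage marker, between 5.03 and 5.38, around or below the filter level. Among tested markers of lymphocytes (4), dendritic (4), endothelial (6), epithelial (7) and muscle cells (5), 0 were higher in number 4 of either line. In KO 1 dendritic, 2 endothelial, 1 epithelial and 1 muscle marker were lower, led by Tek (-1.50 ± 0.14), and in WT 1 lymphocyte and 1 endothelial marker. Fibroblast markers had mean levels of 11.26 to 11.44 in KO arrays of number 4, 11.58 to 11.78 in the other KO arrays, 10.68 to 10.75 in WT arrays of number 4 and 10.57 to 10.71 in the other WT arrays. Of those 15 markers, 6 were higher and 7 lower in WT arrays of number 4, with Col1a1 at 11.78 to 12.62 there and 12.78 to 13.22 in the other WT arrays. Dcn, the matrix proteoglycan decorin, moved the other way, at 13.74 and 13.39 in KO arrays of number 4, 12.52 to 12.60 in the other KO arrays, 11.67 to 11.85 in WT arrays of number 4 and 7.27 to 8.21 in the other WT arrays. S100a4 differed in number 4 by -1.13 ± 0.12 in KO and -2.36 ± 0.08 in WT. Col1a1, Dcn and S100a4 were picked out after their values were seen. The part of these shifts in the members' levels was not tested. In such bulk samples, more responding cells and more RNA per cell cannot be told apart.

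Hypertonic medium was compared with isotonic medium in each arm. In the fit with 1 mean per group, 0 of 34 members passed in WT without Torin1 (8.24% of all genes passed), with 1 member at an unadjusted p under 0.05, and 0 passed in WT with Torin1 (3.37%), with 0 at an unadjusted p under 0.05. In KO cells 2 passed, both higher (30.1%): Irgm1 and Oasl1. The members' medians were -0.35 in KO, -0.45 in WT with Torin1 and -0.40 in WT without, while medians over all genes were 0.02 in each. The members' medians moved when number 4 was left out of 1 group alone. In KO the median was -0.47 without number 4 of the hypertonic and -0.08 without number 4 of the isotonic group. In the same order it was -1.07 and 0.28 in WT with Torin1, and -1.03 and 0.35 in WT without Torin1. The KO median also moved with another array, to -0.57 without isotonic KO array 2. Without any array of number 4 the medians over 33 members were -0.26 in KO, -0.21 in WT with Torin1 and -0.22 in WT without. The spread that this fit works against is the number effect: the members' mean varied within groups with an SD of 1.09, and of 0.22 once the numbers were removed within lines.

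Array by array, the hypertonic level was the lower in most members under every number. In KO it was lower for 28 of 34 members in number 4 and for 23 in each of numbers 1 and 2. In WT with Torin1 it was lower for 34 in number 4, 24 in number 1 and 19 in number 2, and in WT without Torin1 for 29, 25 and 20. The medians of these differences ran from -0.95, in number 4 with Torin1, to -0.11, in number 2 of WT without Torin1. The share of all genes lower in each array pair was not counted, so these counts have no background beside them. Array medians over all genes were 7.53 to 7.57 in hypertonic and 7.66 to 7.74 in isotonic KO arrays. In KO, centring the arrays gave a members' median of -0.20 without a block, with 13 higher and 21 lower, against -0.35, 10 and 24 uncentred.

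**Figure D3:**
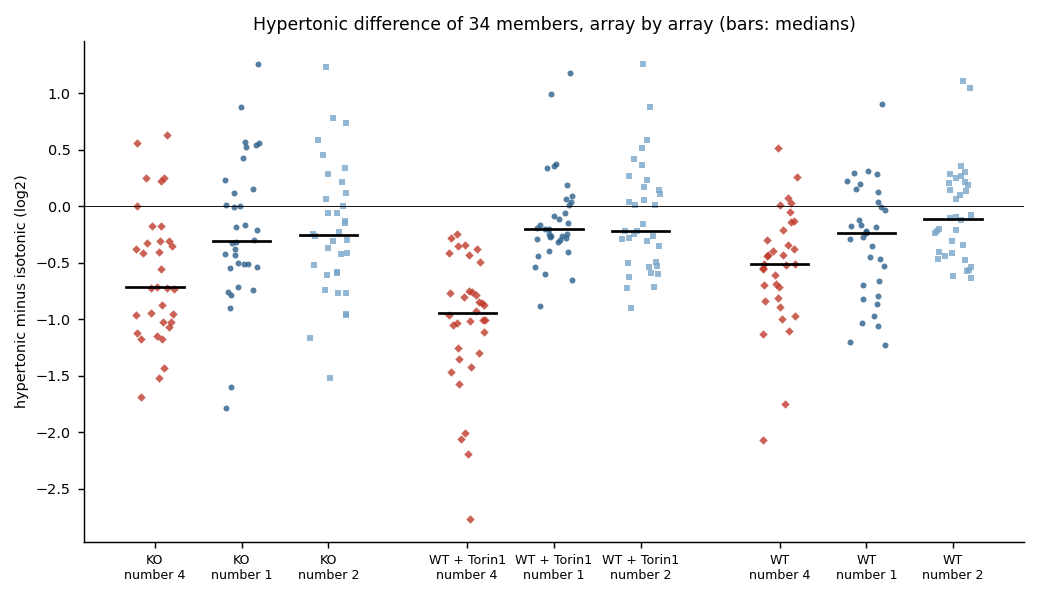
Hypertonic minus isotonic difference (log2) of each of the 34 tested members, as points, in arrays of the same number, for KO, WT with Torin1 and WT without Torin1, with bars at the medians. All 9 medians lie below 0, from -0.95 to -0.11, and some members lie above 0 in every column except number 4 with Torin1.

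With the number as a block common to both lines, 3 members were lower in hypertonic WT cells (15% of all genes passed in either direction), 0 in WT with Torin1 (7.86%; 7 members at an unadjusted p under 0.05), and 2 were higher and 4 lower in KO (36.3%). With a number block of its own in each line, 14 members were lower in KO (23% of all genes lower), 11 in WT with Torin1 (5.87%) and 12 in WT without (10.3%), and 19 in at least 1 arm. Isg20, Parp9 and Psmb8 were the 3 lower in WT under the common block. The members lower in all 3 arms under the block in each line were Eif2ak2, Irf7, Parp14, Parp9, Psmb8, Tap1 and Xaf1. Without a block and under the common block, the share of members passing in KO was below that of all genes. Those fits use 1 spread per gene for both lines, so the KO tests carry the number 4 spread of WT. That low share is therefore no measure of the members' response in KO. With the block in each line 16 of 34 members passed in KO, while 2777 of 15711 genes were higher and 3618 lower. Without any array of number 4, Mx2 no longer passed the filter and 33 members were tested, of which 6 were higher and 13 lower in KO (37.2%), 2 higher and 3 lower in WT with Torin1 (9.88%), and 1 higher and 11 lower in WT (21.2%).

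Tap1 had the largest decrease in KO. Its levels in arrays 1, 2 and 4 were 8.11, 8.16 and 8.57 in hypertonic KO cells, against 9.90, 9.68 and 10.004 in isotonic KO cells. In WT cells with Torin1 they were 8.32, 8.18 and 9.77 in hypertonic medium and 8.86, 8.72 and 10.88 in isotonic medium. In WT cells without Torin1 they were 7.60, 8.03 and 9.52 in hypertonic medium and 8.83, 8.47 and 10.50 in isotonic medium. The media do not overlap in KO, while in WT they separate within each number and overlap across numbers. With a number block in each line the decreases were -1.58 ± 0.14 in KO, -0.73 ± 0.14 in WT with Torin1 and -0.88 ± 0.14 in WT without (limma, adjusted p = 2.47e-06, 0.00499 and 0.000975). Without a block the adjusted p were 0.0722, 0.662 and 0.468. Irf7 fell under the same block by 0.94 in KO, 0.94 in WT with Torin1 and 0.70 in WT without, with a standard error of 0.15 each. Xaf1, a pro-apoptotic interferon target, differed by -1.43 ± 0.14 in KO, -0.48 ± 0.14 in WT with Torin1 and -0.51 ± 0.14 in WT without. Parp9 differed by -0.80 ± 0.16, -0.59 ± 0.16 and -0.76 ± 0.16 in the same order of arms.

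Ifit2 went the other way in part of the arrays. Its hypertonic minus isotonic difference in KO was -0.19 in number 1, -0.41 in number 2 and -0.35 in number 4. In WT it was 1.18, 0.88 and -0.41 with Torin1 and 0.91, 1.11 and 0.08 without. Without number 4 it rose by 1.01 in WT (limma, adjusted p = 0.000151) and by 1.03 in WT with Torin1 (adjusted p = 0.000266), and with number 4 included neither passed with or without the block. The difference in hypertonic response between KO and WT, KO minus WT, was -1.01 ± 0.33 for Ifit2 under the block in each line (limma, adjusted p = 0.0469).

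Irgm1 separated the lines. In arrays 1, 2 and 4 its levels were 11.19, 11.26 and 11.28 in hypertonic KO cells and 9.92, 10.03 and 10.65 in isotonic KO cells. In hypertonic WT cells they were 12.14, 11.99 and 12.67, and in isotonic WT cells 12.01, 11.86 and 12.66. All KO arrays lay below all WT arrays, and the hypertonic KO arrays above the isotonic KO arrays. Irgm1 rose in hypertonic KO cells by 1.04 ± 0.28 (limma, adjusted p = 0.0103), a call that ended without isotonic KO array 1 (adjusted p = 0.0504). Its KO minus WT difference was -1.97 ± 0.28 in isotonic medium (adjusted p = 0.000128) and -1.02 ± 0.28 in hypertonic medium (adjusted p = 0.0114), where the call ended without hypertonic WT array 4 (adjusted p = 0.0566). All 3 calls ended when isotonic KO array 1 was counted as WT. Oasl1 rose in hypertonic KO cells by 0.74 ± 0.17 (adjusted p = 0.00387), at 8.36, 8.37 and 7.95 in arrays 1, 2 and 4 in hypertonic and 7.48, 7.59 and 7.39 in isotonic medium.

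**Figure D4:**
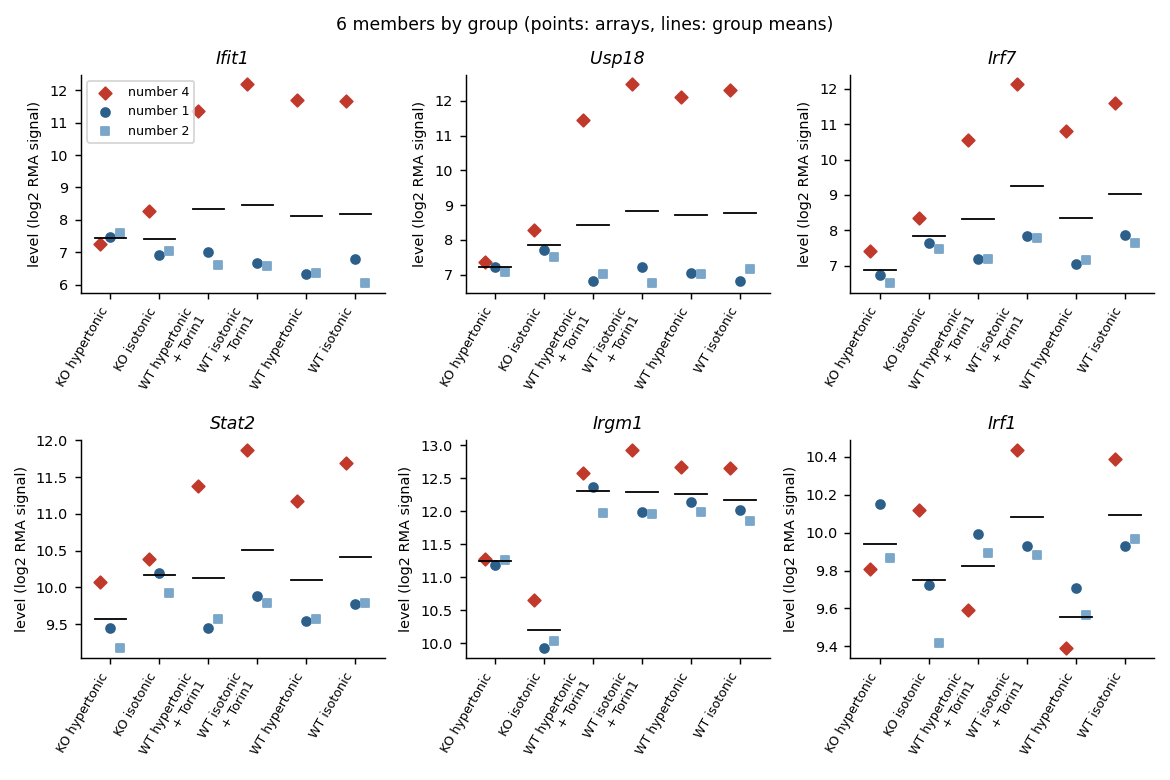
Level (log2 RMA signal) of 6 members by group, with a point for each array (diamond for number 4, circle for number 1, square for number 2) and a line at the group mean. Ifit1, Usp18, Irf7 and Stat2 separate WT arrays of number 4 from the rest, Irgm1 separates KO from WT arrays, and Irf1 does neither.

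KO was compared with WT in each medium. In the fit without a block Irgm1 was the 1 member that passed in isotonic medium (14.6% of all genes) and in hypertonic medium (31.9%), with medians of -0.50 and -0.69 over the members, which became 0.10 and 0.08 without number 4 of the WT group compared. Under the common block 4 members passed in isotonic medium, all lower (20.9%), and 1 higher and 6 lower in hypertonic medium (39.1%). Under the block in each line 17 were lower in isotonic (12.3% of all genes lower) and 18 in hypertonic medium (24%), for instance Bst2 at -1.37 ± 0.10 and -1.12 ± 0.10, against -0.63 and -0.38 without number 4. In this comparison the WT means include the high arrays of number 4, while the block takes their spread out of the standard error. The calls and standard errors under this block therefore do not measure a line difference apart from number 4. Without number 4 the members' medians were 0.10 in isotonic and 0.04 in hypertonic medium. In isotonic medium 9 members were then higher and 7 lower (24.2%), and in hypertonic medium 8 and 8 (40.2%). Usp18 was at -0.92 ± 0.18 in isotonic medium under the block in each line and at 0.63 without number 4, and Trim30a at -0.51 ± 0.23 (limma, adjusted p = 0.13) and 0.91. Members lower in KO in both media with and without number 4 included Irgm1, Parp14, Parp9, Dtx3l and Bst2. Parp14 had 6.57, 6.16 and 6.74 in hypertonic KO cells, against 7.24, 7.50 and 9.34 in hypertonic WT cells, in arrays 1, 2 and 4. Its isotonic levels were 6.90, 6.75 and 7.89 in KO cells, against 7.93, 7.97 and 10.18 in WT cells. Nfat5 itself differed, KO minus WT, by -0.26 ± 0.16 in isotonic and -0.44 ± 0.16 in hypertonic medium (limma, adjusted p = 0.367 and 0.0503), and by the same -0.44 with an adjusted p of 0.00487 under the block in each line. Where its probe set lies relative to the deleted part is not stated.

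The change in the hypertonic response between KO and WT passed for 0 members without a block (9.5% of all genes), with 2 at an unadjusted p under 0.05 in limma. Under the common block Irgm1 alone passed (14.5%), at 0.95, and under the block in each line 4 members did (19.2%): Irgm1 higher, and Xaf1, Tap1 and Ifit2 lower. Without number 4 it was 7 members (17.8%).

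Torin1 was compared with no Torin1 in WT cells. With all arrays and no block, 0 of 34 members passed in isotonic medium (0% of all genes) or in hypertonic medium (0.115%). In either medium 0 members had an unadjusted p under 0.05 by limma, and the medians were 0.13 and 0.03. With a number block in each line, 0 members passed in either medium. In that fit 391 of 15711 genes were higher and 342 lower with Torin1 in hypertonic medium, and 0 passed in isotonic medium. There 4 members in hypertonic and 1 in isotonic medium had an unadjusted p under 0.05 by limma. The medians without a block changed sign with single arrays. The isotonic one was -0.57 without number 4 of the Torin1 group and 0.89 without number 4 of the untreated group, and the hypertonic one -0.43 and 0.79. Without number 4, Ifit3 and Parp9 were higher with Torin1 in hypertonic medium, by 1.32 and 0.69 (4.75% of all genes passed). Ifit3 had 9.52, 9.62 and 11.42 in arrays 1, 2 and 4 with Torin1, against 8.31, 8.17 and 11.54 without it. The hypertonic response differed with Torin1 for 0 members and 0% of all genes, again with 0 members at an unadjusted p under 0.05. The Torin1 and hypertonic comparisons of the WT line share arrays.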

How the data were processed

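Total RNA of 18 arrays was measured with Affymetrix labelling per the labels' protocols. The authors deposited log2 values from RMA, for which R 2.11.1 is listed per the submitters' processing notes. They were used without further normalization. A genome build was not given in the sources used here. A gene was read from the probe set that names it alone and has the highest mean. Genes whose highest group mean exceeded 5.86 log2, the 30th percentile of all values, were tested.

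limma 3.58.1 in R 4.3.3 fitted 1 mean per group to all 18 arrays, with Benjamini-Hochberg adjustment over 15711 genes and calls at an adjusted p below 0.05. Other fits added the number in the title as a block, common to both lines or of its own in each line. The number contrasts used the same terms. The procedure was tested on simulated data. Over the 21 pairs of same-numbered arrays from groups that were compared, deviations from the group means correlated at 0.156 to 0.847, so the numbers were treated as pairing the arrays, a reading from the data and not from the labels. Blocked values therefore stand beside the results that they change.

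The members and gene lists were chosen with earlier results of these data known. All members could be named, together with listed interferon genes, Nfat5 and the 10 other genes whose pattern was most like the members' mean. Fits with a number effect of its own in each line or medium were added as result contrasts after seeing the data. Leaving Mx2 out of their counts was also decided after seeing the data. The other alternatives were no filter, a filter at the 50th percentile, averaging all probe sets of a gene, quantile normalization, median centring, a trended and robust prior, isotonic KO array 1 counted as WT, number 4 left out, each line alone, and each array left out in turn. The number of arrays limits the precision.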

Additional observations from a re-analysis of the deposited data

Results flagged for a closer look

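These results stood out because an effect differed between groups by a test of the difference itself. The difference between number 4 and the mean of numbers 1 and 2, taken in KO minus in WT, passed in limma for 25 members, Mx2 left out. On the log2 scale it was Ifit1 (-4.69), Usp18 (-4.67), Trim30a (-4.47), Oasl2 (-3.97), Mx2 (-3.87), Rtp4 (-3.24), Irf7 (-3.02), Ifit3 (-2.81), Gbp3 (-2.64), Oas2 (-2.56), Bst2 (-2.32), Cmpk2 (-2.21), Xaf1 (-2.07), Oas1a (-2.03), Eif2ak2 (-1.93), Rsad2 (-1.85), Ifih1 (-1.62), Ddx58 (-1.49), Tap1 (-1.47), Irf9 (-1.45), Stat2 (-1.31), Parp14 (-1.29), Ifi35 (-0.91), Parp9 (-0.84), Psmb9 (-0.83) and Oasl1 (-0.61). Mx2 passed the filter on dim genes through WT arrays of number 4 alone, and its levels in all other arrays lay under the filter level of 5.86. Its values, -3.87 here and -1.31 below, are therefore descriptions, with no test. The KO side rests on 2 arrays of number 4 and the WT side on 4.

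The same difference, taken in hypertonic minus in isotonic WT arrays, passed for Dhx58 (-2.31), Oas1a (-2.02), Ifit2 (-1.19) and Oas2 (-1.08). Mx2, at -1.31, is not counted. Each medium has 2 WT arrays of number 4. These contrasts were chosen after the data had been seen.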

How the results depend on the processing

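Counts of members passing limma moved under these alternatives, and the cause was not tested beyond what each construction shows. With the replicate block common to both lines, the hypertonic comparison called 6 members in KO and 3 in WT, KO against WT called 4 in isotonic and 7 in hypertonic medium, and the change in hypertonic response between lines called 1. With a replicate block in each line apart, these were 16, 12, 18, 20 and 4, and 11 in WT with Torin1. Without any array of number 4 they were 19, 12, 16, 16 and 7, 5 in WT with Torin1, and 2 for Torin1 in hypertonic medium. Centring the arrays moved the median of all genes by up to 0.18, gave 3 for KO against WT in hypertonic medium and 1 for the change in response, and turned the hypertonic KO split of all genes to 4321 higher and 1912 lower, against 2030 and 2704 uncentred. Counting isotonic KO array 1 as WT left 1 for hypertonic KO, and 0 for KO against WT in isotonic and in hypertonic medium, for number 4 in KO and for the medium dependence of number 4. In KO arrays alone, number 4 passed against number 1 for 9 members and against number 2 for 12. There 5 values changed sign: against number 1 Cmpk2 (-0.054) and Eif2ak2 (-0.45), and against number 2 Cmpk2 (-0.094), Eif2ak2 (-0.26) and Oas1a (-0.026). Counts here include Mx2. Leaving out single arrays gave 1 to 3 for hypertonic KO, 1 throughout for KO against WT in isotonic and 0 to 2 in hypertonic medium, 0 to 1 for the change in response, 2 to 14 for number 4 in KO, 31 to 34 in WT, 20 to 27 for the difference between lines, 0 to 6 for the medium dependence, and 26 to 31 and 27 to 31 for number 4 against numbers 1 and 2. With 3 arrays a group, their number limits what can be detected.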
